A study of Mus musculus with 12 samples.

Results

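The genes described here are Tlr1, Tlr2, Tlr3, Tlr4, Tlr6, Tlr7, Tlr8, Tlr9 and Tlr13, which encode Toll-like receptors, and Unc93b1, which encodes the membrane chaperone of the endosomal receptors. They were chosen by name, and all 10 were among the 12441 genes measured by RNA sequencing in mouse macrophages grown from bone marrow. Bone marrow cells were cultured for 6 days with 10% L929-conditioned medium, a source of macrophage growth factor. The cells were wild type (WT) or homozygous for the D316Y substitution in COQ6, a mitochondrial enzyme of coenzyme Q synthesis. Each genotype was left unstimulated or given 100 ng/mL lipopolysaccharide (LPS), the outer-membrane lipid of Gram-negative bacteria, for 24 h. That made 4 groups of 3 libraries, 12 in all. The labels used here give neither the sex or age of the mice nor whether the libraries of a group came from separate animals, so p-values measure the spread between these libraries, which may be technical. Coq6 RNA itself lay between 3.37 and 3.81 log2 CPM (reads scaled to library size, CPM, on a log2 scale) in all 12 libraries, and a transcript level does not check a single-residue substitution.

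Toll-like receptors recognise conserved microbial molecules through a horseshoe of leucine-rich repeats and signal through a cytoplasmic TIR domain and the adaptors MyD88 and TRIF. TLR1, TLR2, TLR4 and TLR6 act at the plasma membrane on lipopeptides and LPS, while TLR3, TLR7, TLR8, TLR9 and TLR13 sense nucleic acids in endosomes. UNC93B1 escorts the endosomal receptors out of the endoplasmic reticulum, and macrophages use both sets to start cytokine and interferon responses.

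The libraries held between 32767773 and 47181104 reads in the deposited table. All 8 macrophage markers looked for were in the table, with summed levels of 31982 to 38392 CPM in the unstimulated libraries and 53492 to 69184 CPM after LPS. Single markers did not all move that way. With LPS the mean of Cd68 went from 10.99 to 9.57 log2 CPM in WT and from 10.80 to 9.46 in D316Y cells. Csf1r went from 11.13 to 10.92 and from 10.74 to 10.69, and Adgre1 from 10.92 to 12.06 and from 10.43 to 11.73. Markers of mast cells and erythroid cells were not in the table, Lck was the single T or NK cell marker found, at no more than 1.24 CPM, and Cd79b was the single B cell marker found, between 3.40 and 9.22 CPM. Both fibroblast markers found (of 5) summed to at most 2.79 CPM. Summed neutrophil markers (5 of 8 in the table) were 66.5 to 86.3 CPM at rest and 187 to 227 CPM after LPS. In both genotypes the unstimulated replicate 1 library stood apart, with 0.449% (WT) and 0.949% (D316Y) of reads from mitochondrially encoded genes, against 1.97% to 2.97% in the other unstimulated libraries. Results that rest on those libraries are given with and without them. In bulk RNA, fewer cells of a type and less RNA per cell cannot be told apart.

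LPS raised Tlr1, Tlr2 and Tlr3 in both genotypes and lowered Tlr13 in both. Tlr9 fell in WT cells. Tlr4, Tlr6, Tlr7, Tlr8 and Unc93b1 did not pass the test in either genotype. Of the 10 genes, 3 rose and 2 fell in WT cells, where 37.1% of all 11663 genes tested passed (18.1% higher, 19% lower). In D316Y cells 3 rose and 1 fell, against 38.4% of 11795 genes (19.4% higher, 19% lower). A pass is an adjusted p under 0.05 in limma's moderated test over all genes. The shares of members that passed, 5 and 4 of 10, were thus near the share of all genes. In each genotype the LPS and unstimulated libraries did not overlap for 5 members (Tlr1, Tlr2, Tlr3, Tlr9 and Tlr13), beside 46.8% of all genes in WT and 52.8% in D316Y cells. The members' median difference was -0.15 (log2) in WT and 0.12 in D316Y cells, beside -0.01 and -0.03 for all genes. The count of members that fell depends on the scale, as set out below.

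**Figure D1:**
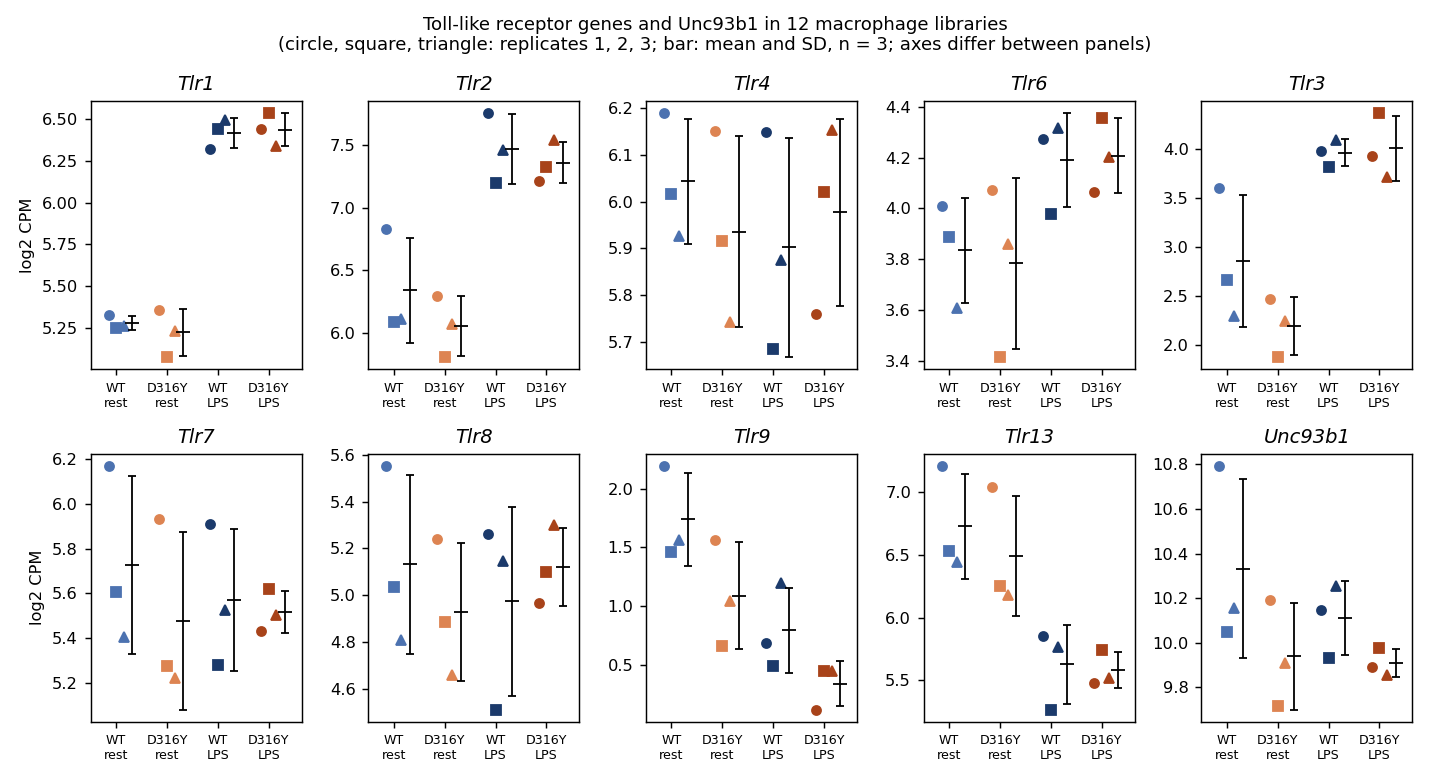
Level of each of the 10 genes in every library, as log2 CPM, with replicates 1, 2 and 3 as circle, square and triangle and the mean and SD (n = 3) at the right of each group. Tlr1, Tlr2 and Tlr3 are higher in all LPS libraries than in all unstimulated libraries of the same genotype, Tlr13 and Tlr9 are lower, and replicate 1 is the highest unstimulated library for every gene in both genotypes.

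TLR2 is the shared partner of the lipopeptide receptors and pairs with TLR1 or TLR6. Tlr2 (ENSMUSG00000027995, GRCm38 chr3:83836272-83841767, minus strand) stood at 6.83, 6.09 and 6.11 log2 CPM in WT replicates 1 to 3 at rest and at 7.76, 7.19 and 7.46 after LPS. In D316Y cells the values were 6.29, 5.81 and 6.07 at rest and 7.21, 7.33 and 7.54 after LPS. The LPS and unstimulated libraries did not overlap in either genotype. Tlr2 rose by 1.13 ± 0.21 (log2, SE) or 2.18-fold in WT cells, with an adjusted p of 0.0009 in limma, and by 1.30 ± 0.21 or 2.47-fold in D316Y cells (adjusted p = 0.0003).

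TLR1 joins TLR2 to bind triacylated lipopeptides. Tlr1 (ENSMUSG00000044827, chr5:64924679-64933563, minus strand) was the steadiest of the genes that rose. Its unstimulated libraries lay between 5.25 and 5.33 log2 CPM in WT and between 5.08 and 5.36 in D316Y cells, and its LPS libraries between 6.32 and 6.49 and between 6.34 and 6.53. No unstimulated library came near an LPS library. The rise was 1.13 ± 0.12 (log2, SE) in WT cells and 1.21 ± 0.12 in D316Y cells, the smallest standard errors of the 10 genes.

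Tlr6 (ENSMUSG00000051498, chr5:64952031-64960097, minus strand), whose product joins TLR2 on diacylated lipopeptides, lies 18467 bp from Tlr1 on the same strand. Its levels were 4.01, 3.89 and 3.61 log2 CPM in WT cells at rest and 4.28, 3.98 and 4.32 after LPS, so the groups overlapped. The difference was 0.36 ± 0.18 (log2, SE; adjusted p = 0.145) in WT and 0.42 ± 0.18 (adjusted p = 0.0817) in D316Y cells, both in limma. In D316Y cells it passed under 3 of 17 alternative settings. It did so with both unstimulated replicate 1 libraries left out, at 0.57 (limma adjusted p = 0.0176). It also did so without D316Y unstimulated replicate 1 alone, at 0.57 (limma adjusted p = 0.029). Within a library the ratio of Tlr1 to Tlr6 reads went from 1.45 ± 0.18 to 2.23 ± 0.22 (log2, SD, n = 3) in WT cells and from 1.44 ± 0.20 to 2.23 ± 0.13 in D316Y cells, a measure that does not depend on how libraries are scaled.

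TLR4 is the LPS receptor itself. Tlr4 (ENSMUSG00000039005, chr4:66827584-66930284, plus strand) was at 6.19, 6.02 and 5.93 log2 CPM in WT cells at rest and at 6.15, 5.68 and 5.87 after LPS. In D316Y cells it was at 6.15, 5.91 and 5.74 at rest and 5.76, 6.02 and 6.15 after LPS. All 4 groups overlapped, and the differences were -0.14 in WT (95% interval -0.49 to 0.20) and 0.04 in D316Y cells (-0.30 to 0.39).

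TLR3 is the endosomal sensor of double-stranded RNA and signals through TRIF. Tlr3 (ENSMUSG00000031639, chr8:45395665-45411080, minus strand) was at 3.60, 2.66 and 2.30 log2 CPM in WT cells at rest, or 677, 300 and 202 reads, and at 3.97, 3.81 and 4.09 after LPS. In D316Y cells it was at 2.46, 1.88 and 2.24 at rest and 3.93, 4.36 and 3.71 after LPS. WT replicate 1 was the one unstimulated library close to the LPS libraries, and unstimulated and LPS libraries did not overlap in either genotype. Tlr3 rose by 1.10 ± 0.28 (log2, SE) or 2.15-fold in WT cells (limma adjusted p = 0.0077), and by 1.81 ± 0.28 or 3.50-fold in D316Y cells (adjusted p = 0.0002). Without both unstimulated replicate 1 libraries the rises were 1.48 and 1.94. An annotated antisense gene, Gm45542, overlaps Tlr3 exons, and whether the authors' counting used the strand is not given in the sources used here, so reads of the 2 genes may not be told apart.

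TLR13 recognises bacterial ribosomal RNA in mice. Tlr13 (ENSMUSG00000033777, chrX:106143204-106160493, plus strand) was at 7.21, 6.53 and 6.44 log2 CPM in WT cells at rest, or 8275, 4391 and 3585 reads, and at 5.85, 5.27 and 5.76 after LPS. In D316Y cells it was at 7.04, 6.25 and 6.18 at rest and 5.48, 5.75 and 5.52 after LPS. Every LPS library lay below every unstimulated library. The fall was 2.15-fold in WT cells (log2 difference -1.10 ± 0.25 SE, limma adjusted p = 0.0036) and 1.88-fold in D316Y cells (-0.91 ± 0.25, adjusted p = 0.0109). Without both unstimulated replicate 1 libraries, the highest for this gene, the differences were -0.86 and -0.63, and both passed. Of 6 markers of conventional dendritic cells, 3 were in the table (Itgax, Xcr1 and Ccr7), and they did not move together. The mean level of Itgax was lower after LPS in both genotypes, as were those of Tlr13 and Tlr9, while Xcr1 and Ccr7 were higher. The 3 markers summed to 34.7 to 58.5 CPM in WT and 43.2 to 92.6 CPM in D316Y cells at rest. After LPS the sums were 20.8 to 30.8 and 28.7 to 36.0 CPM. Most of that sum at rest was Itgax, which macrophages also express, while the mean level of Xcr1 was -0.45 and -0.81 log2 CPM at rest and 0.96 and 0.84 after LPS, and that of Ccr7 was higher after LPS too. The part of these cells in the lower Tlr13 and Tlr9 levels after LPS was not tested.

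TLR9 binds unmethylated CpG DNA and is best known from plasmacytoid dendritic cells and B cells. Tlr9 (ENSMUSG00000045322, chr9:106222598-106226883, plus strand) was the lowest of the 10 genes, with 121 to 255 reads per library in WT cells at rest and 53 to 94 after LPS. The levels were 2.19, 1.46 and 1.56 log2 CPM in WT cells at rest against 0.69, 0.49 and 1.20 after LPS. In D316Y cells they were 1.57, 0.66 and 1.04 at rest against 0.12, 0.45 and 0.45 after LPS. The groups did not overlap in either genotype.

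Tlr9 fell by 0.94 ± 0.30 (log2, SE) in WT cells, a 1.93-fold difference with a limma adjusted p of 0.0242. The difference in D316Y cells was -0.75 ± 0.30, and its adjusted p of 0.0645 in limma did not pass. The WT call did not hold without both unstimulated replicate 1 libraries (-0.72, adjusted p = 0.063), nor in limma without WT unstimulated replicate 1 (-0.72, adjusted p = 0.0966), WT LPS replicate 1 (-0.89, 0.0631) or WT LPS replicate 2 (-0.79, 0.0916) alone. Siglech, a marker of plasmacytoid dendritic cells, was between -1.06 and 0.50 log2 CPM over the 12 libraries. The 4 markers of that cell type in the table (of 6) summed to 286 to 604 CPM at rest and 1171 to 1521 CPM after LPS, most of it Bst2, which macrophages also express, and the part of other cell types in the Tlr9 reads was not tested.

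TLR7 senses single-stranded RNA and TLR8 is its close relative. Their genes lie side by side on the X chromosome, Tlr8 (ENSMUSG00000040522) at chrX:167242696-167264329 and Tlr7 (ENSMUSG00000044583) at chrX:167304929-167330558, both on the minus strand and 40599 bp apart. Tlr7 was at 6.17, 5.61 and 5.40 log2 CPM in WT cells at rest and 5.91, 5.28 and 5.52 after LPS. Tlr8 was at 5.55, 5.03 and 4.81 at rest and 5.26, 4.51 and 5.15 after LPS. For both genes the groups overlapped, and in both groups of WT cells the highest library was replicate 1. The LPS differences were -0.16 for each gene in WT cells and 0.04 and 0.19 in D316Y cells, with limma adjusted p-values from 0.544 to 0.909. The Tlr7 to Tlr8 ratio within libraries was 0.60 ± 0.02 (log2, SD, n = 3) at rest and 0.60 ± 0.20 after LPS in WT cells.

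Unc93b1 (ENSMUSG00000036908, chr19:3935186-3949340, plus strand) was by far the most abundant of the set, with 30223 to 99096 reads per library. It stood at 10.79, 10.05 and 10.16 log2 CPM in WT cells at rest and at 10.15, 9.93 and 10.25 after LPS. In D316Y cells it was at 10.19, 9.72 and 9.91 at rest and 9.89, 9.98 and 9.86 after LPS. The groups overlapped, and the LPS differences of -0.22 and -0.03 did not pass.

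**Figure D2:**
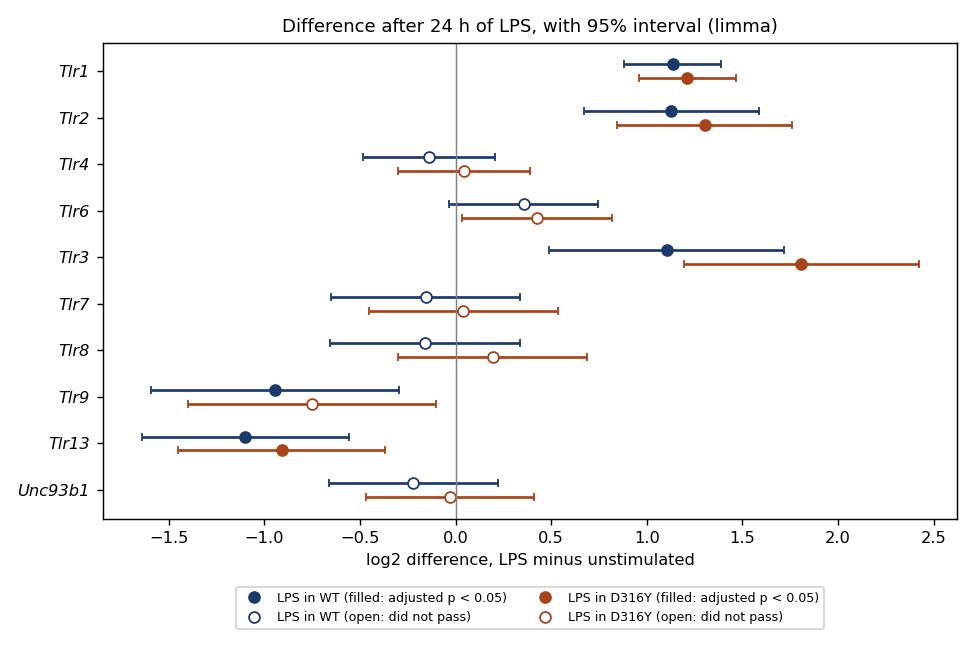
Log2 difference between LPS and unstimulated libraries for each gene in WT (blue) and D316Y (red) cells, with 95% intervals from limma and filled points where the adjusted p was under 0.05. Tlr1, Tlr2 and Tlr3 lie above 0 and Tlr13 below 0 in both genotypes, Tlr9 is filled in WT and open in D316Y cells, and the intervals of the 2 genotypes overlap for every gene.

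These differences are on the authors' scale, on which the median gene moved by -0.01 and -0.03. Scaled instead to the reads in the table, the median of all genes shifted to -0.51 in WT and -0.54 in D316Y cells. The 10 most abundant genes took 19.9% to 21.7% of reads at rest and 32.9% to 37.2% after LPS. Scaled to the reads in the table, Tlr1 and Tlr2 still rose in both genotypes, by 0.63 and 0.62 in WT and 0.70 and 0.79 in D316Y cells. Tlr3 rose by 1.29 in D316Y cells and was 0.60 higher in WT cells without passing (limma adjusted p = 0.0782). Members below 0 then passed more often, 6 in WT (Tlr13, Tlr9, Unc93b1, Tlr8, Tlr7 and Tlr4) and 4 in D316Y cells (Tlr13, Tlr9, Unc93b1 and Tlr4). The direction for Tlr6 flipped to -0.15 and -0.09.

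Ordering the genes by level needs a value per length, taken here as log2 CPM per kilobase of exon. In WT cells at rest the order was Unc93b1 (8.73 ± 0.40, SD, n = 3), Tlr2 (4.75 ± 0.42), Tlr13 (4.62 ± 0.42), Tlr7 (3.70 ± 0.40), Tlr4 (3.57 ± 0.13), Tlr1 (3.54 ± 0.04), Tlr8 (3.29 ± 0.38), Tlr6 (1.94 ± 0.21), Tlr3 (0.47 ± 0.67) and Tlr9 (-0.06 ± 0.40). Unc93b1, the pair of Tlr2 and Tlr13, the run from Tlr7 to Tlr8, and Tlr6 were separated by gaps in the library values. Tlr2 and Tlr13 overlapped, as did the neighbours from Tlr7 to Tlr8 and Tlr3 with Tlr9. D316Y cells at rest showed the same separations, with Tlr1 at 3.48 ± 0.14 ahead of Tlr4 and Tlr7 in a run that overlapped.

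After LPS the first 2 places (Unc93b1 and Tlr2) and the last 4 (Tlr8, Tlr6, Tlr3 and Tlr9) held the same genes in both genotypes, and the order changed between them. In WT cells Tlr2 (5.88 ± 0.28) stood clear of Tlr1 (4.67 ± 0.09), which stood clear of Tlr7, Tlr13, Tlr4 and Tlr8, whose libraries overlapped between 2.67 and 3.88 log2 CPM per kilobase. Tlr13 moved from the third place to the fifth, at 3.52 ± 0.32. Tlr3 (1.58 ± 0.14) and Tlr9 (-1.01 ± 0.36), which overlapped at rest, kept their order and were then separate. In D316Y cells after LPS the same genes were separate, with Tlr2 at 5.77 ± 0.16, Tlr1 at 4.69 ± 0.10, Tlr3 at 1.62 ± 0.33 and Tlr9 at -1.46 ± 0.19.

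Expressed as a share of the 9 receptor genes' summed CPM per kilobase, Tlr2 went from 25.8% ± 1.85 (SD, n = 3) to 43.3% ± 2.35 with LPS in WT cells and from 24.6% ± 2.38 to 41.2% ± 2.74 in D316Y cells. Tlr13 went from 23.6% ± 1.47 to 8.48% ± 0.70 and from 23.3% ± 3.27 to 8.42% ± 0.74. Tlr1 went from 12.5% ± 1.51 to 19.6% ± 2.00 in D316Y cells. At rest Tlr2 and Tlr13 thus took similar shares of the receptor RNA. Tlr2 was the higher in every unstimulated library but D316Y replicate 1 (22.9% against 27.0%). After LPS Tlr2 took at least 39.0% and Tlr13 at most 9.12% in every library. Shares within a library do not depend on the scaling of libraries, but they must sum to the whole, so a gain in one lowers the others. Tlr4 went from 11.4% ± 1.55 to 7.93% ± 0.30 in WT cells in this measure.

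**Figure D3:**
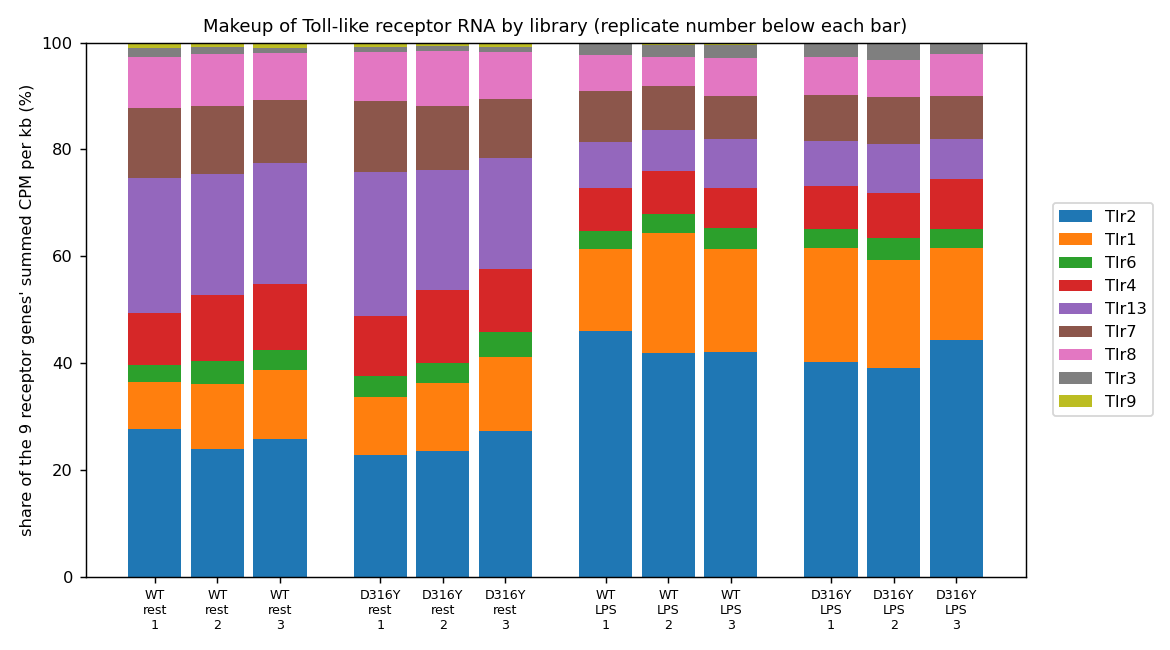
Share of each receptor gene in the summed CPM per kilobase of the 9 receptor genes, as stacked bars for the 12 libraries. The Tlr2 band (blue, at the foot) spans 22.9% to 27.7% at rest and 39.0% to 46.0% after LPS, and the Tlr13 band (purple) spans 20.7% to 27.0% at rest and 7.65% to 9.12% after LPS.

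The ratio of Tlr2 to Tlr13 reads within a library compares the 2 receptor genes with the highest levels per length at rest. It was -0.39 ± 0.05 (log2, SD, n = 3) at rest and 1.84 ± 0.13 after LPS in WT cells, and -0.43 ± 0.32 and 1.78 ± 0.22 in D316Y cells. Tlr3 against Tlr13 went from -3.88 ± 0.27 to -1.67 ± 0.21 in WT and from -4.30 ± 0.33 to -1.58 ± 0.21 in D316Y cells, the latter a wider move than that of Tlr2 against Tlr13. Tlr13 against Tlr7, another X-linked RNA sensor, went from 1.00 ± 0.07 to 0.06 ± 0.16 in WT and from 1.01 ± 0.08 to 0.06 ± 0.06 in D316Y cells. The 3 libraries of each group lay close together in that ratio, also replicate 1 at rest.

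Sequence before an annotated start was available from RefSeq (GRCm38.p6) for 7 of the 10 genes and is shown because several of them moved together. Tlr4, Tlr7 and Unc93b1 had no entry. In the 250 bases before the RefSeq start, both strands were searched for an interferon-stimulated response element core, the gamma-activated site TTCNNNGAA, an NF-kB-like motif, the AP-1 motif TGANTCA, a PU.1-like motif and the C/EBP-like motif TTGCNNAA. Over all 32851 promoters of that length the shares holding these letters were 2.98%, 7.02%, 4.65%, 6.75%, 0.798% and 9.56%. The NF-kB-like motif was found in 3 of the 7, Tlr2, Tlr6 and Tlr3. A match describes letters and is neither a bound site nor a cause. The 3 stretches are given as 30 bases, 5′ to 3′ on the gene's strand, with the matched bases in capitals, and in Tlr2 and Tlr3, which rose, and Tlr6, which did not pass, they read as follows.
Tlr2 (GRCm38.p6 chr3:83841762-83841791, minus strand): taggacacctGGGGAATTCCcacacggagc
Tlr6 (GRCm38.p6 chr5:64960128-64960157, minus strand): tttatacacgGGGTAATTCCaacgagtacc
Tlr3 (GRCm38.p6 chr8:45410572-45410601, minus strand): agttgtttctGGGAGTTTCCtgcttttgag

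These matches began 173, 99 and 211 bases before the RefSeq start. The RefSeq start used here is that of the RefSeq entry nearest the GENCODE start. For these 3 genes it lies inside the RefSeq gene and is not its outer end. It differs from the GENCODE start by 159 bases for Tlr2, 49 for Tlr6 and 700 for Tlr3, so the distances depend on the annotation. The Tlr3 match lies inside the gene in both annotations, and those of Tlr2 and Tlr6 lie before the GENCODE gene but inside the RefSeq gene, so none of the 3 is upstream of the gene in both. Tlr3 also held a C/EBP-like match, and Tlr8, which did not pass, held a C/EBP-like match and a gamma-activated site. Tlr1, which rose as much as Tlr2 in WT cells, held none of the 6 motifs in this window, nor did Tlr13, which fell. Tlr9 held an AP-1 match from 58 to 52 bases before its start. For these 3 genes the part of the window before the gene's start in both annotations is shown, with the AP-1 match of Tlr9 in capitals.
Tlr1 (GRCm38.p6 chr5:64933601-64933808, minus strand): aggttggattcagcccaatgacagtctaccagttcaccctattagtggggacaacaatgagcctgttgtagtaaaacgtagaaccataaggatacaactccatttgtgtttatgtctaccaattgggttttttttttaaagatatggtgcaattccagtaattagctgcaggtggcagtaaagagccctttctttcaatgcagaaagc
Tlr13 (GRCm38.p6 chrX:106143025-106143203, plus strand): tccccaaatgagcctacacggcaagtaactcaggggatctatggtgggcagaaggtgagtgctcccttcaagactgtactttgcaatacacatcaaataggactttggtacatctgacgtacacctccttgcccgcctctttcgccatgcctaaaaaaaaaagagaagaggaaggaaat
Tlr9 (GRCm38.p6 chr9:106222348-106222597, plus strand): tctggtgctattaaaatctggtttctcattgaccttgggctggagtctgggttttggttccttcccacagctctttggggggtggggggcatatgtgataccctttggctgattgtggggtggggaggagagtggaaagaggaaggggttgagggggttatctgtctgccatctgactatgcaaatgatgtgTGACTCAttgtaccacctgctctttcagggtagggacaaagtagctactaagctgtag

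The mutation itself was compared within each condition. In unstimulated cells none of the 10 genes passed between D316Y and WT, where 1 of 11525 genes tested did (0.00868%). The smallest unadjusted p among the 10 was 0.0711, where 2.92% of all genes were under 0.05, and the adjusted p-values in limma ran from 0.942 to 0.974. All 10 differences (D316Y minus WT) were below 0, from -0.05 for Tlr6 to -0.66 for Tlr3, with a median of -0.24 beside -0.02 for all genes, 53.8% of which were below 0. For none of the 10 were the 2 genotypes' libraries separate, which 8.13% of all genes were.

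The larger of these differences were in Tlr3 (-0.66, 95% interval -1.42 to 0.10), Tlr9 (-0.65, -1.37 to 0.07) and Unc93b1 (-0.39, -1.01 to 0.22). WT replicate 1 supplied the highest value of the 6 unstimulated libraries for each of these genes. Without WT replicate 1 alone, 7 of the 10 differences were below 0 and their median was -0.035. Tlr3 was then at -0.29, Tlr9 at -0.42 and Unc93b1 at -0.16, while Tlr6, Tlr8 and Tlr13 were above 0, at 0.037, 0.0075 and 0.0043. Without D316Y replicate 1 alone, all 10 were below 0 and the median was -0.44. Without D316Y replicate 2, the lowest D316Y library for 6 genes, those for Tlr1 and Tlr6 were above 0.

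Unstimulated libraries of the 2 genotypes deviated together for replicates 1 and 2, and less so for replicate 3. The test was therefore also run with the replicate number as a block. With the block 6 genes in all passed, none of them among the 10, and 6 of the 10 had an unadjusted p under 0.05, as did 18.4% of all genes in that fit, with the smallest adjusted p at 0.135 for Unc93b1. With both replicate 1 libraries left out, all 10 were again below 0, where 54.7% of all genes were, with a median of -0.21. In that fit 4 of the 10 and 13.2% of all genes had an unadjusted p under 0.05, and the smallest adjusted p among the 10 was 0.239. In the authors' deposited table for unstimulated cells Tlr9 stood at -0.678 (p = 0.00399, adjusted p = 0.161) and Unc93b1 at -0.318 (p = 0.0140, adjusted p = 0.222), and neither passed.

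After LPS none of the 10 genes passed between genotypes either, where 5 of 11306 genes did (0.0442%), and in this fit no member had an unadjusted p under 0.05, against 6.5% of all genes. The differences were 5 above 0 and 5 below (50.8% of all genes below), with a median of -0.01 and limma adjusted p-values from 0.826 to 0.993. Without WT LPS replicate 2, 9 of the 10 were below 0 (52.3% of all genes) with a median of -0.14. Unc93b1 then had an unadjusted p under 0.05 (-0.29, limma adjusted p = 0.228), as did 14.7% of all genes. With all libraries the 95% intervals were -0.23 to 0.27 for Tlr1, -0.25 to 0.40 for Tlr4 and -0.45 to 0.23 for Tlr2. Those of Tlr8 (-0.26 to 0.56) and Tlr9 (-1.09 to 0.18) were wider. Every member's interval included 0, which does not show that a difference is absent. Tlr9 was the one gene whose libraries did not overlap, with read numbers of 69, 53 and 94 against 39, 51 and 44 for D316Y, while 12.5% of all genes did not overlap. Its difference was -0.46 ± 0.29 (log2, SE). In the authors' deposited table for LPS-treated cells Tlr9 was at -0.720 (p = 0.00835, adjusted p = 0.265) and Unc93b1 at -0.285 (p = 0.017, adjusted p = 0.307). Tlr1, Tlr3 and Tlr6, above 0 in the fit here, were below 0 there, at -0.016, -0.035 and -0.081.

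**Figure D4:**
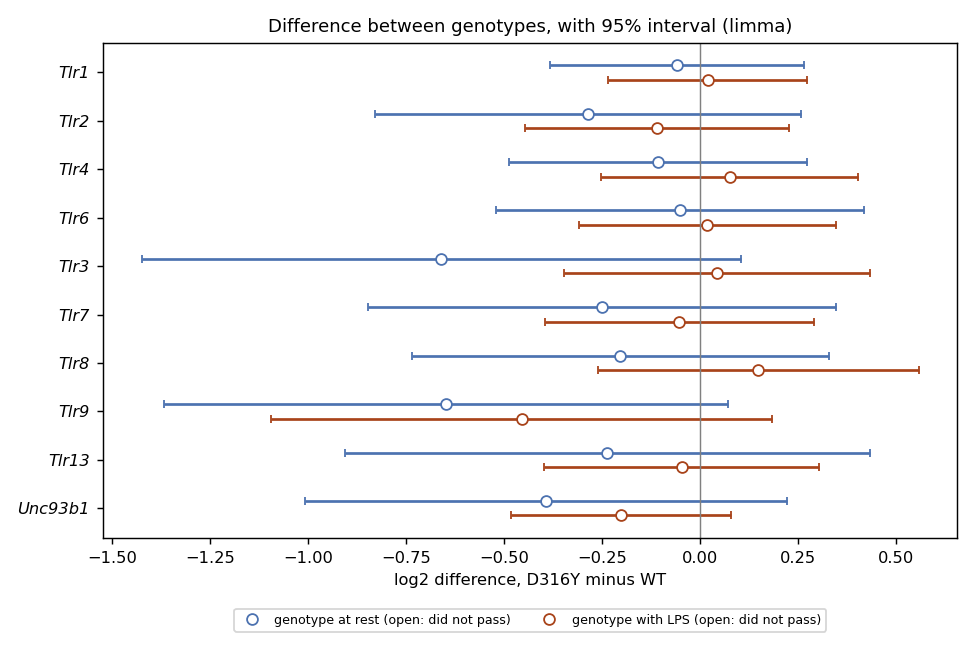
Log2 difference between D316Y and WT cells for each gene, unstimulated (blue) and with LPS (red), with 95% intervals from limma. Every interval includes 0, the unstimulated points all lie below 0, and the LPS points lie 5 above and 5 below it.

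The difference between the genotypes in their response to LPS was tested as an interaction in 1 model of the 12 libraries. None of the 10 genes passed and none of 11918 genes did (0.0%), with 251 genes (2.11%) and no member at an unadjusted p under 0.05. All 10 estimates were above 0, where 48.3% of all genes were below, from 0.07 for Tlr6 to 0.70 ± 0.40 (log2, SE) for Tlr3, with a limma adjusted p of 0.999 for each. For Tlr3 the interval ran from -0.16 to 1.57. Without WT unstimulated replicate 1, 6 of the 10 estimates were below 0, the median went from 0.19 to -0.02 and Tlr3 stood at 0.33. Without both unstimulated replicate 1 libraries all 10 were above 0, with a median of 0.20, and without D316Y unstimulated replicate 1 alone the median was 0.37. These estimates contain the same unstimulated libraries as the comparison at rest and are not separate from it. The Tlr9 call in WT cells and its absence in D316Y cells do not show a difference between the genotypes. That difference was 0.19 (95% interval -0.72 to 1.11), an interval too wide to settle its size or direction.

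The 10 genes did not vary independently from library to library. After subtracting group means, the correlation between pairs of members over the 12 libraries had a median of 0.745 over 45 pairs, ran from -0.03 to 0.963 and was above 0.5 in 39, where the points share each library's scaling and RNA quality. In both unstimulated groups replicate 1 was the highest library for all 10 genes, by a mean of 0.387 above the group mean in WT and 0.320 in D316Y cells. WT LPS replicate 2 was the lowest for 9 of the 10, at a mean of -0.242. The lowest correlation was between Tlr1 and Tlr4. None of these counts was made over all genes, so they do not set the 10 genes apart from others. Over expressed genes, the deviations of the WT and D316Y unstimulated replicate 1 libraries from their group means correlated at 0.628. The unstimulated replicate 1 libraries also had the lowest mitochondrial shares of the unstimulated libraries, and the part of RNA quality in these shifts was not tested.

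**Figure D5:**
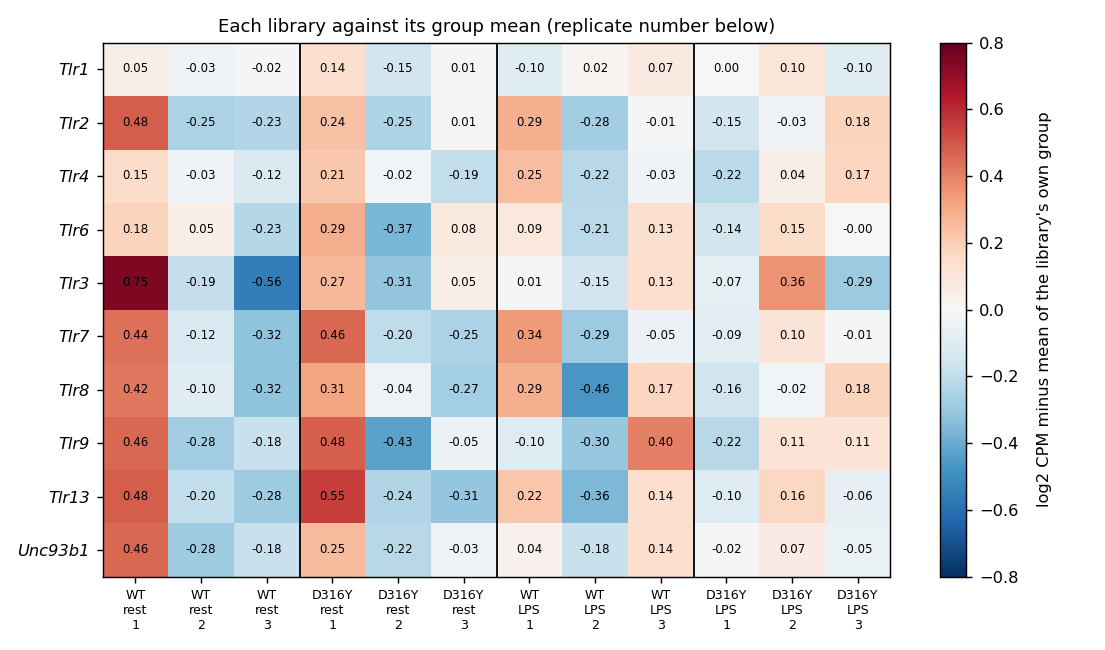
Log2 CPM of each gene in each library minus the mean of that library's own group, coloured from blue (below) to red (above), with the group boundaries as black lines. The replicate 1 columns of both unstimulated groups are above 0 for all 10 genes, and the column of WT LPS replicate 2 is below 0 for 9 of them.

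For each member the 3 genes with the highest Pearson correlation over the 12 libraries were found among at least 10047 genes. The measure describes likeness and takes in the LPS difference where there was one. Tlr4, Tlr6, Tlr7, Tlr8 and Unc93b1 did not pass with LPS, and what their correlations reflect was not tested. For Tlr1 the 3 genes were Acp5 (0.996), Pex16 and Bst1, and for Tlr2 Surf4 (0.991), Lcp2 and Icam1 (0.989). Tlr3 was closest to Dck, Ifih1 and Herc6 (0.986 to 0.989). Ifih1 encodes the cytoplasmic RNA sensor MDA5. Tlr13 was closest to Parp1 (0.989), Adam8 and Vwa5a, and Tlr7 to Csf1r (0.952), the receptor of macrophage growth factor, Vps35l and L3mbtl2. Tlr4 reached no more than 0.921 (Trak2), the lowest best match of the 10. Within groups, by deviations from the group means, Unc93b1 was closest to Ifi207 (0.988), Tap2 and Ptpn6, and Tlr2 to Hk2 (0.993).

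The partners of these receptors changed with LPS as follows, by lists of pathway genes and on the authors' scale alone. Their counts are to be read against the 18.1% of all genes that rose and 19% that fell in WT cells. In D316Y cells these shares were 19.4% and 19%. Scaled to the reads in the table, the median of all genes was -0.51 in WT and -0.54 in D316Y cells, so the smaller rises and falls may depend on the scale. Tlr5, Tlr11 and Tlr12 were not in the table and are not analysed here. Of 5 co-receptors and relatives, 2 rose and 2 fell in each genotype. Cd14, which hands LPS to TLR4, rose by 1.05 (log2) in WT and 1.07 in D316Y cells, and Ly96, the LPS-binding subunit of the TLR4 complex, by 0.66 and 0.43. Cd36, a scavenger receptor that works with TLR2 and TLR6, fell 2.64-fold and 2.81-fold, and Cd180, a TLR4-like surface protein, fell by 0.97 and 0.87 on the log2 scale. On this scale Tlr4 itself did not pass while both of its LPS-binding helpers rose. Scaled to the reads in the table, Tlr4 was below 0 and passed in both genotypes, and the helpers are not given on that scale.

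Of 11 genes for chaperones and trafficking of these receptors, Unc93b1 among them, 3 rose and 2 fell in WT cells and 4 rose and 2 fell in D316Y cells. Syk rose by 0.94 and 0.87, and Lrrc59, which takes part in the exit of endosomal receptors from the endoplasmic reticulum, by 0.59 and 0.77. Rab7b, a late endosomal GTPase, fell by 1.09 and 0.91, and Arl8b, a lysosomal GTPase, fell by 0.43 and 0.46. Hsp90b1, a folding chaperone of the receptors, did not pass in either.

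Of 13 genes for endolysosomal processing and ligand supply, 4 rose and 5 fell in WT cells and 4 rose and 4 fell in D316Y cells. Rnaset2a and Rnaset2b, which encode an RNase that cuts RNA for endosomal receptors, were higher by 2.06 and 1.93 in WT and 2.29 and 2.01 in D316Y cells. They are near-identical copies, so the split of reads between them is uncertain. Dnase2a, the lysosomal DNase that prepares DNA for TLR9, fell by 1.09 and 1.11. Slc15a4, a lysosomal transporter needed for TLR7 and TLR9 signalling, fell by 0.89 in WT cells and 0.70 in D316Y cells. Pld3, an exonuclease that degrades TLR9 ligands, fell by 0.76 in WT and 0.80 in D316Y cells.

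Downstream, of 5 adaptors Myd88 rose in both genotypes, by 0.82 and 1.07, and Tirap fell by 0.38 in WT cells and was at -0.09 without passing in D316Y cells. Of 14 IRAK, TRAF and associated kinase genes tested, 3 rose and 1 fell in WT and 4 rose in D316Y cells. Irak3, the inhibitory IRAK, rose 10.9-fold and 13.3-fold, and Ikbke rose by 1.05 and 1.37 on the log2 scale. Irf7 rose 7.22-fold and 12.4-fold, while Irf5 fell by 0.54 in WT cells and was at -0.17 without passing in D316Y cells. Of 9 negative regulators, 2 rose and 2 fell in WT and 3 rose and 1 fell in D316Y cells. Tnfaip3, which encodes a deubiquitinase that restrains NF-kB, rose by 0.89 and 1.14. Il1rl1, the ST2 receptor of an alarmin cytokine, was among those that fell and had 48 to 142 reads in the unstimulated libraries and at most 1 read in any LPS library.

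Interferon-stimulated genes were followed because Tlr3 and Irf7 belong to interferon-responsive programmes. Of 14, 10 rose in WT and 14 rose in D316Y cells, where 18.1% and 19.4% of all genes did. At rest all 14 were lower in D316Y cells as estimates, with a median of -0.80 beside -0.02 for all genes, 4 at an unadjusted p under 0.05 (2.92% of all genes) and none passing. Their mean over the list was 7.07, 6.37 and 6.32 log2 CPM in WT and 5.68, 5.34 and 6.46 in D316Y cells at rest, so the groups overlapped. No gene of any of these lists passed in either genotype comparison or in the interaction.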

How the data were processed

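RNA from 12 macrophage cultures was sequenced by the submitters. The submitters' processing notes list STAR 2.5.1a and featureCounts 1.4.6-p5 beside bcl2fastq, limma and other tools, without saying what each did. No label or header names the build, the annotation or the strand setting. The deposited values are log2 CPM per gene, per the file headers, and both deposited tables also hold the authors' fold changes and p-values. Of 12493 rows, 52 repeated an identifier, leaving 12441 genes, all matched in GENCODE M21 (GRCm38), which gave positions and exon lengths. Values back-calculated to whole reads: 100% of those below 200 reads were within 0.01 of a whole number, with 0.5 read added and libraries scaled to effective sizes.

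Groups came from the sample labels. limma 3.58.1 in R 4.3.3 (eBayes with trend and robust, Benjamini-Hochberg adjustment over all genes tested, threshold 0.05) was run on genes that averaged 0 log2 CPM or more in 1 compared group. LPS contrasts and the interaction came from 1 model of 4 groups, and genotype contrasts from the 6 libraries of a condition. On simulated data the genotype test at rest recovered 83% of log2 changes of 1 and 100% of 2 among 11558 genes. For changes of 1 the LPS test in WT cells recovered 87% and the interaction 48%. The simulation gave all genes the same spread and no shift shared by libraries, so these shares do not hold for members with more spread. The voom fit of recovered reads called 4315 genes for LPS in WT and 4489 in D316Y cells.

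Same-numbered libraries of the 2 genotypes deviated together at rest for replicates 1 and 2 (correlations 0.628 and 0.600), taken as pairing from the data. Replicate 3 at rest stood at 0.156. The other same-numbered pairs ran from -0.242 to 0.405, the highest being WT replicate 1 at rest against WT replicate 1 after LPS. The members and lists were chosen with earlier results of these data known. Named genes are all members, the 3 genes most correlated with each, and of each list the 2 largest rises and falls that passed, else that with the smallest p. Slc15a4 in D316Y cells, Pld3 in WT cells, Irf5 and Tirap in D316Y cells and Hsp90b1 were named beyond that rule, after their values were seen. Alternatives changed the scale, filter, prior, moderation, model, block and libraries used.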

Additional observations from a re-analysis of the deposited data

How the results depend on the processing

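The 3 members that rose with LPS passed in both genotypes under every alternative except the scaling to the reads in the table, which ended the Tlr3 call in WT cells (0.60). In D316Y cells Tlr6 rose as well under 3 of 17 alternatives. The replicate block changed no member's call in any comparison, and it moved the count of all genes that passed between genotypes at rest from 1 to 6. Over the 50 member differences and all alternatives, 821 values kept their direction and side of the threshold. Without changing sign, 6 lost a call and 11 gained one. The sign changed in 51, all of them differences that had not passed as reported. These 51 include values that passed with the new sign, as Tlr4 did in D316Y cells scaled to the reads in the table (-0.47). The cause of these changes was not tested, other than the fewer libraries where one was left out.

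The count of members that fell with LPS was 2 in WT cells and became 1 under quantile normalization, 1 without both unstimulated replicate 1 libraries, 6 scaled to the reads in the table and 1 to 2 with 1 library left out. In D316Y cells it was 1 and became 2 without trend and robust moderation, 4 scaled to the reads in the table and 1 to 2 with 1 library left out. That scaling and the omission of both unstimulated replicate 1 libraries were chosen after seeing the data, while leaving out 1 library at a time was planned. The order of levels per length in unstimulated D316Y cells kept 6 of 10 places with the longest transcript as length and 6 to 10 with 1 library left out.

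Scaled to the reads in the table, LPS differences changed sign for Tlr6 in WT cells (-0.15) and for Tlr4 (-0.47), Tlr6 (-0.091), Tlr7 (-0.47) and Tlr8 (-0.32) in D316Y cells. Quantile normalization turned Tlr4 (-0.14) and Tlr7 (-0.10) in D316Y cells, and centring turned Unc93b1 (0.028). Without both unstimulated replicate 1 libraries Tlr7 (0.066), Tlr8 (0.052) and Unc93b1 (0.0089) in WT and Unc93b1 (0.096) in D316Y cells were above 0.

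With 1 library left out, the LPS difference in WT cells ranged from -0.32 to 0.066 for Tlr7, -0.32 to 0.073 for Tlr8 and -0.36 to 0.0089 for Unc93b1, and in D316Y cells from -0.055 to 0.15 for Tlr4, -0.086 to 0.27 for Tlr7 and -0.14 to 0.096 for Unc93b1. Between genotypes at rest it ranged from -0.13 to 0.014 for Tlr1, -0.51 to 0.0043 for Tlr13, -0.20 to 0.13 for Tlr6 and -0.37 to 0.0075 for Tlr8. After LPS it ranged from -0.030 to 0.069 for Tlr1, -0.23 to 0.066 for Tlr13, -0.25 to 0.034 for Tlr2, -0.14 to 0.19 for Tlr3, -0.034 to 0.20 for Tlr4, -0.088 to 0.091 for Tlr6, -0.20 to 0.12 for Tlr7 and -0.083 to 0.29 for Tlr8. The interaction ranged from -0.051 to 0.47 for Tlr13, -0.067 to 0.32 for Tlr2, -0.11 to 0.21 for Tlr6, -0.025 to 0.42 for Tlr7, -0.035 to 0.43 for Tlr9 and -0.039 to 0.33 for Unc93b1. Depth limits Tlr9 most, with 39 to 255 reads per library.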
